A study of Mus musculus with 20 samples.

Results

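The mRNA levels of 33 genes for sterol and fatty acid synthesis were examined in bone marrow-derived dendritic cells (BMDCs) treated with a bromodomain inhibitor. The genes were chosen by symbol from a list of the sterol regulatory element-binding protein (SREBP) pathway and its enzymes, and 33 of the 24421 genes in the count table matched it. All 33 had enough counts to be tested, among 12465 tested genes. They comprised 5 regulators, 7 genes of the mevalonate pathway, 9 genes of the sterol branch, 1 sterol carrier, 4 genes of fatty acid supply and synthesis, 3 elongases and 4 desaturases.

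The cells were grown from mouse bone marrow with GM-CSF at 40 ng/mL for 8 days. Cells of each of 5 mice (A to E) were split over 4 groups, so every group held 5 libraries. DMSO Ova cells received DMSO and soluble ovalbumin, DMSO IC cells DMSO and ovalbumin-IgG immune complexes (IC), iBET Ova cells I-BET151 at 3.3 μM and ovalbumin, and iBET IC cells I-BET151 at 3.3 μM and IC, each for 4 hours. I-BET151 (iBET) is a small molecule that keeps BET family proteins from binding acetylated histones. All animals were wild-type C57BL/6 mice, and no group carried a transgene or a deletion. The labels give simultaneous addition and 5% DMSO for the controls, whereas the methods place iBET before the stimulus, and the solvent content of the iBET cultures was not given in the sources used here.

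SREBP transcription factors are made as membrane proteins of the endoplasmic reticulum. The escort protein SCAP carries them to the Golgi for cleavage when sterols are scarce, and INSIG proteins hold SCAP back when sterols are plentiful. The released fragment enters the nucleus and binds promoters of genes for cholesterol and unsaturated fatty acid synthesis. In macrophages and dendritic cells these pathways supply membrane and are known to change during inflammatory activation.

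Total counts ranged from 16447491 to 29245150 per library, and the ribosomal RNA gene Rn45s took 2.69% to 8.61% of them. Values below are CPM (counts scaled to a fixed library total) after TMM normalization. The lowest count in any library was 17 for Fads2 and 28 for Elovl6, for which counting error was not small, and 76 or more for the other 31 genes. A gene was called changed at a Benjamini-Hochberg adjusted p under 0.05 over all 12465 genes in edgeR's quasi-likelihood test. Changes are given as log2 fold changes ± SE. This main fit compared the 4 groups without the pairing by mouse, and an alternative fit took the mouse as a block. All 8 dendritic cell markers were detected in every group, with a summed level of 4488 to 9520 CPM in the 20 libraries. The markers entered that sum unequally, as in DMSO Ova Cd74 averaged 2661 CPM, Itgax 1962 CPM and Zbtb46 24.5 CPM. With iBET 2 of the 8, Flt3 and Batf3, were called lower under each stimulus and none higher. Their means fell from 3.03 to 0.242 CPM and from 18.7 to 5.57 CPM with Ova. A fit with the mouse as a block called 5 of the 8 lower under each stimulus. In that fit 1 was called higher with Ova and 2 with IC, and 68.7% and 68.0% of all genes were called either way. Macrophage markers summed to 1322 to 2039 CPM with DMSO and 906 to 1519 CPM with iBET. Of the 7, 4 were called lower with iBET under Ova and 2 under IC. With the mouse as a block, 5 of the 7 were called lower under each stimulus and none higher. Over all genes tested, 28.9% with Ova and 29.0% with IC were called lower in the main fit. Neutrophil markers summed to at most 51.4 CPM, mast cell and basophil markers to at most 2.70 CPM and lymphocyte markers to at most 0.726 CPM. Of these lists, up to 1 neutrophil, 2 lymphocyte and 2 mast cell markers had no count in a whole group. The part of the macrophage and dendritic marker differences in the results below was not tested. In bulk RNA, fewer cells of a type and less RNA per cell cannot be told apart.

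The first question was how iBET changed these genes under each stimulus. iBET raised genes for cytosolic acetyl-CoA supply and fatty acid chain synthesis, namely Acly, Acaca and Fasn, and lowered the desaturases Scd2 and Fads1. Acss2 also rose, but it was not called in mice A and B alone, and its call with IC was lost when single mice were left out. Within sterol synthesis single steps moved apart, with Acat2, Sqle and Hsd17b7 rising more than 2-fold while neighbouring steps such as Fdft1 and Nsdhl fell. The genes of the SREBP factors themselves, Srebf1 and Srebf2, did not pass the test.

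With Ova, 20 of the 33 genes were called, 14 higher and 6 lower with iBET. Over all genes tested 56.6% were called, 27.7% higher and 28.9% lower. With IC, 21 of the 33 were called, 13 higher and 8 lower, against 56.1% of all genes, 27.1% higher and 29.0% lower. The total share of members called was therefore close to that of all genes and is no result about these genes. Their median log2 fold change stood at 0.16 (Ova) and 0.081 (IC), compared with -0.0029 and -0.0054 for all genes. 17 members were called under both stimuli, 12 higher in both and 5 lower in both, where 49.1% of all genes were called under both, 23.9% higher and 25.2% lower. 3 were called with Ova alone, 4 with IC alone and 9 with neither. The iBET and DMSO groups did not overlap in 12 members with Ova and in 16 with IC, and over all genes tested they did not overlap in 38.0% and 42.8%, so these counts too are close to the background. Changes of 1 or more on the log2 scale were seen for 3 members under each stimulus, Acat2, Sqle and Hsd17b7, and for 15.5% of all genes under either. With the mouse as a block, 26 members were called with Ova and 25 with IC, against 68.7% and 68.0% of all genes.

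**Figure D1:**
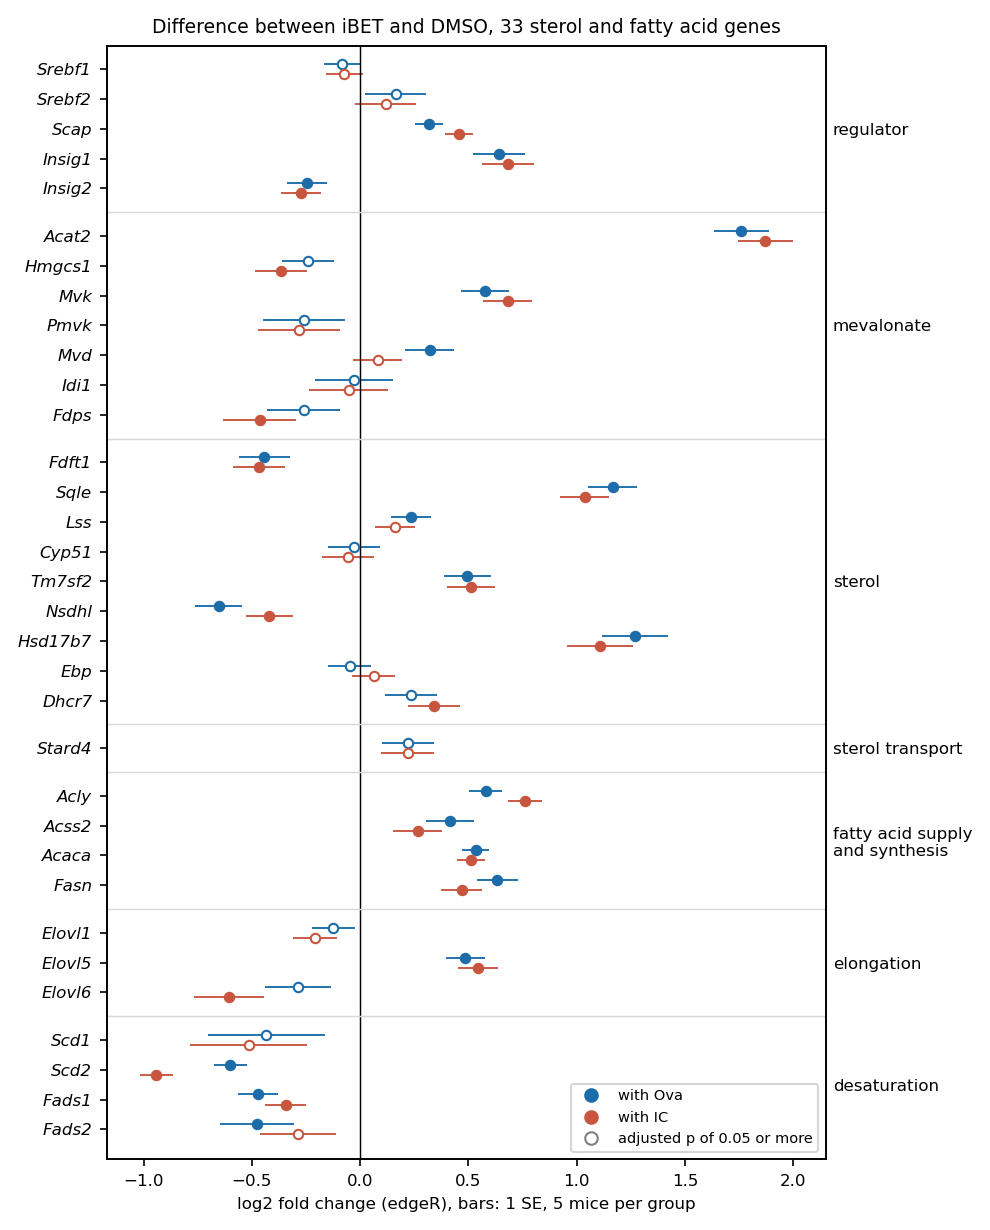
The log2 fold change between iBET and DMSO (x axis) is plotted for the 33 genes in order of role, with Ova in blue and with IC in red, filled points for an adjusted p under 0.05 in edgeR and bars of 1 SE over 5 mice per group. Acat2 lies farthest right at 1.76 and 1.87, all 4 genes of fatty acid supply and synthesis lie to the right of 0, and all 4 desaturases lie to the left.

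Among the regulators, iBET raised Insig1 and Scap and lowered Insig2 under both stimuli, while Srebf1 and Srebf2 did not pass the test. INSIG1 and INSIG2 both retain SCAP in the endoplasmic reticulum, and Insig1 is itself a gene that SREBP factors switch on. Insig1 (chr5:28071363-28078662, plus strand) averaged 47.4 ± 8.88 CPM (SD, n = 5) in DMSO Ova and 73.9 ± 9.35 in iBET Ova. Insig1 stood at 60.1, 52.6, 39.1, 45.1 and 40.2 CPM in mice A to E in DMSO Ova and at 51.1, 46.3, 43.7, 49.8 and 40.4 in DMSO IC. With iBET, Insig1 stood at 89.4, 73.6, 66.1, 67.1 and 73.4 CPM with Ova and at 87.6, 79.8, 68.0, 74.2 and 61.6 with IC. The 5 iBET libraries lay above the 5 DMSO libraries under either stimulus. The log2 fold change was 0.64 ± 0.12 (SE, edgeR adjusted p = 1.39e-04) with Ova and 0.68 ± 0.12 (adjusted p = 6.87e-05) with IC. Scap rose by 0.32 ± 0.065 (SE, edgeR adjusted p = 3.20e-04) with Ova, where groups overlapped, and by 0.46 ± 0.065 (adjusted p = 5.86e-06) with IC, where they did not. An antisense gene overlaps 13.2% of its exon bases. Insig2 lay at 12.3 to 19.6 CPM over all libraries and fell, with log2 fold changes of -0.25 ± 0.092 (SE, edgeR adjusted p = 0.0284) and -0.27 ± 0.091 (adjusted p = 0.0155). Its call was lost with Ova (adjusted p = 0.0991, 0.235 and 0.0683 without mice A, B or E) and with IC (adjusted p = 0.0537, 0.0582 and 0.0528 without mice B, D or E). Without mouse B the Insig2 value with Ova moved to -0.13, and it was -0.44 in mice A and B and -0.052 in mice C, D and E.

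Srebf1 (chr11:60199089-60222581, minus strand) gives rise to the SREBP-1a and SREBP-1c forms, of which SREBP-1c favours fatty acid genes, and Srebf2 (chr15:82147181-82205379, plus strand) encodes SREBP-2, which favours sterol genes. Srebf1 stood at 89.1, 86.8, 85.5, 84.2 and 66.2 CPM in mice A to E in DMSO Ova and at 77.0, 73.6, 64.2, 69.6 and 76.2 in DMSO IC. With iBET, Srebf1 stood at 91.9, 65.0, 75.3, 80.0 and 76.0 CPM with Ova and at 70.5, 69.1, 67.4, 66.9 and 68.6 with IC. The groups overlapped throughout, and the log2 fold change with iBET was -0.084 ± 0.085 (SE, edgeR adjusted p = 0.414) with Ova and -0.074 ± 0.085 (adjusted p = 0.477) with IC. Srebf2 stood at 75.7, 88.4, 127, 123 and 85.8 CPM in mice A to E in DMSO Ova and at 102, 85.9, 96.0, 97.8 and 113 in DMSO IC. With iBET, Srebf2 stood at 103, 101, 120.3, 136 and 101 CPM with Ova and at 89.1, 92.5, 117, 108 and 129 with IC. For Srebf2 the groups also overlapped, with log2 fold changes of 0.16 ± 0.14 (SE, edgeR adjusted p = 0.334) and 0.12 ± 0.14 (adjusted p = 0.491). Gene-level counts do not separate the forms of Srebf1, and mRNA levels do not report cleavage of either protein.

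The mevalonate pathway turns acetyl-CoA into the isoprenoid units of sterols. Of its 7 members here, iBET raised 3 with Ova (Acat2, Mvk and Mvd) and lowered none. With IC it raised Acat2 and Mvk and lowered Hmgcs1 and Fdps. Acat2 (chr17:12942890-12960747, minus strand) encodes the cytosolic thiolase that joins the first acetyl-CoA molecules, and it showed the largest change of the 33 genes. Acat2 stood at 30.3, 20.3, 27.4, 16.5 and 23.8 CPM in mice A to E in DMSO Ova and at 20.0, 15.2, 18.3, 15.9 and 18.8 in DMSO IC. With iBET, Acat2 stood at 86.7, 68.0, 89.4, 74.7 and 81.7 CPM with Ova and at 67.8, 64.5, 63.4, 64.7 and 61.9 with IC. Every iBET library exceeded every DMSO library, the lowest with iBET being 61.9 CPM and the highest with DMSO 30.3 CPM. Acat2 rose 3.38-fold with Ova, a log2 fold change of 1.76 ± 0.13 (SE, edgeR adjusted p = 6.27e-10), and 3.66-fold with IC, 1.87 ± 0.13 (adjusted p = 2.91e-10). Acat2 shares 28.9% of its 100-base stretches with the neighbouring paralog Acat3, so reads may have been split between them. Acat3 averaged 9.05 and 6.65 CPM with DMSO and 33.4 and 26.2 CPM with iBET, and it rose as well, by 1.88 ± 0.17 (SE, edgeR adjusted p = 1.69e-08) and 1.98 ± 0.17 (adjusted p = 1.05e-08).

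Hmgcs1 (chr13:119690379-119708260, plus strand) encodes the synthase of the next step. Hmgcs1 stood at 80.3, 86.0, 53.5, 66.9 and 60.3 CPM in mice A to E in DMSO Ova and at 71.0, 71.4, 65.9, 71.5 and 55.0 in DMSO IC. With iBET, Hmgcs1 stood at 62.9, 65.7, 52.0, 60.3 and 52.6 CPM with Ova and at 59.0, 56.7, 46.2, 52.5 and 45.3 with IC. The groups overlapped, and all 5 mice had less with iBET than with DMSO under either stimulus. The log2 fold change was -0.24 ± 0.12 (SE, edgeR adjusted p = 0.0918) with Ova, or adjusted p = 0.00326 with the mouse as a replicate block, and -0.37 ± 0.12 (SE, edgeR adjusted p = 0.0133) with IC. The call with IC was lost at an adjusted p of 0.0645 without mouse D. An antisense gene overlaps 12.1% of the exon bases of Hmgcs1.

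Mvk (chr5:114444269-114460591, plus strand) and Mvd (chr8:122433601-122443422, minus strand) encode mevalonate kinase and the decarboxylase that forms isopentenyl pyrophosphate. Mvk stood at 14.9, 13.3, 11.3, 12.3 and 11.1 CPM in mice A to E in DMSO Ova and at 10.0, 8.67, 8.40, 9.79 and 10.7 in DMSO IC. With iBET, Mvk stood at 22.4, 14.2, 16.9, 20.0 and 20.4 CPM with Ova and at 15.8, 14.0, 14.5, 15.8 and 16.3 with IC. All 5 mice had more Mvk with iBET for each stimulus, and its groups overlapped with Ova only. Its log2 fold change was 0.58 ± 0.11 (SE, edgeR adjusted p = 1.75e-04) with Ova and 0.68 ± 0.11 (adjusted p = 3.41e-05) with IC. Mvd stood at 58.9, 47.7, 38.3, 46.5 and 41.0 CPM in mice A to E in DMSO Ova and at 60.8, 57.8, 52.5, 63.6 and 66.2 in DMSO IC. With iBET, Mvd stood at 69.4, 52.9, 51.4, 58.5 and 58.2 CPM with Ova and at 77.7, 63.7, 57.4, 63.6 and 55.5 with IC. Mvd was higher with iBET in 5 of 5 mice with Ova and in 3 of 5 with IC, and the groups overlapped under both. Its log2 fold change was 0.32 ± 0.11 (SE, edgeR adjusted p = 0.0209) with Ova and 0.081 ± 0.11 (adjusted p = 0.566) with IC, and the call with Ova was lost at adjusted p = 0.0739 and 0.0845 without mice D or E.

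Pmvk, Idi1 and Fdps encode phosphomevalonate kinase, the isomerase of isopentenyl pyrophosphate and farnesyl pyrophosphate synthase. Pmvk lay between 10.5 and 23.4 CPM and did not pass the test, with log2 fold changes of -0.26 ± 0.19 (SE, edgeR adjusted p = 0.258) and -0.28 ± 0.19 (adjusted p = 0.218). All 5 mice had less Pmvk with iBET for each stimulus, and a fit with a replicate block for the mouse called it at adjusted p = 0.00175 (Ova) and 0.00101 (IC). Idi1 did not pass the test either, at -0.030 ± 0.18 (SE, edgeR adjusted p = 0.897) and -0.054 ± 0.18 (adjusted p = 0.818). Its values differed in sign between mice. Fitted to mice A and B, which earlier results of these data had set apart, Idi1 gave 0.37 with Ova and 0.41 with IC, and fitted to mice C, D and E it gave -0.19 and -0.26. The labels and methods name no batch that separates these mice. Fdps fell with IC, at -0.46 ± 0.17 (SE, edgeR adjusted p = 0.0248), and its value with Ova was -0.26 ± 0.17 (SE, edgeR adjusted p = 0.194), or adjusted p = 0.00552 under the mouse block. The Fdps call with IC was lost at adjusted p = 0.0846, 0.0621 and 0.0863 without mice C, D or E. Fdps overlaps another gene model on the same strand over 26.7% of its exon bases, and 15.8% of the 100-base stretches of Idi1 also lie in other genes.

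The sterol branch leads from farnesyl pyrophosphate through squalene to cholesterol, and of its 9 genes here, 4 were called higher and 2 lower with iBET under each stimulus. Sqle and Hsd17b7 rose, as did Tm7sf2, and Fdft1 and Nsdhl fell under both stimuli. Sqle (chr15:59315077-59331192, plus strand) encodes squalene epoxidase, the first oxygen-requiring and a rate-limiting step of the branch. Sqle stood at 52.4, 43.5, 37.6, 38.8 and 36.6 CPM in mice A to E in DMSO Ova and at 52.6, 46.5, 40.6, 38.9 and 39.6 in DMSO IC. With iBET, Sqle stood at 108, 102, 85.9, 92.1 and 80.3 CPM with Ova and at 99.6, 100.1, 87.1, 84.8 and 75.5 with IC. The lowest iBET library, at 75.5 CPM, lay above the highest DMSO library, at 52.6 CPM. Sqle rose 2.24-fold with Ova, a log2 fold change of 1.17 ± 0.11 (SE, edgeR adjusted p = 4.55e-08), and 2.05-fold with IC, 1.04 ± 0.11 (adjusted p = 2.18e-07).

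Hsd17b7 (chr1:169949535-169969241, minus strand) encodes the sterol 3-keto reductase that acts after removal of the C4 methyl groups. Hsd17b7 stood at 8.42, 6.05, 5.56, 5.01 and 6.10 CPM in mice A to E in DMSO Ova and at 8.06, 7.26, 5.93, 4.96 and 5.36 in DMSO IC. With iBET, Hsd17b7 stood at 18.0, 16.2, 15.2, 12.6 and 13.2 CPM with Ova and at 15.0, 14.5, 14.8, 11.7 and 11.8 with IC. Its iBET libraries again lay above all DMSO libraries, and the log2 fold change was 1.27 ± 0.15 (SE, edgeR adjusted p = 6.21e-07) and 1.11 ± 0.15 (adjusted p = 3.56e-06). Nsdhl (chrX:72918557-72958514, plus strand), whose product is the dehydrogenase just before Hsd17b7 in C4 demethylation, went the other way. Nsdhl stood at 15.8, 14.4, 10.7, 13.3 and 11.4 CPM in mice A to E in DMSO Ova and at 14.8, 11.9, 11.0, 14.3 and 11.7 in DMSO IC. With iBET, Nsdhl stood at 9.29, 8.62, 7.58, 8.60 and 7.70 CPM with Ova and at 9.84, 9.66, 8.95, 10.4 and 8.62 with IC. Each iBET group lay below its DMSO group with no overlap, and the log2 fold change was -0.65 ± 0.11 (SE, edgeR adjusted p = 4.31e-05) with Ova and -0.42 ± 0.11 (adjusted p = 0.00281) with IC. The 2 neighbouring reactions of C4 demethylation thus had opposite changes in 5 of 5 mice under either stimulus.

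Fdft1 (chr14:63145150-63179578, minus strand) encodes squalene synthase, which commits farnesyl pyrophosphate to sterols. Fdft1 stood at 25.5, 21.5, 17.9, 20.8 and 16.9 CPM in mice A to E in DMSO Ova and at 21.8, 19.4, 16.8, 19.3 and 16.2 in DMSO IC. With iBET, Fdft1 stood at 19.1, 12.0, 14.3, 15.4 and 14.7 CPM with Ova and at 14.9, 13.0, 12.8, 13.6 and 13.2 with IC. Fdft1 was lower with iBET in 5 of 5 mice, with overlap of the groups under Ova and none under IC. Its log2 fold change was -0.44 ± 0.12 (SE, edgeR adjusted p = 0.00362) and -0.47 ± 0.12 (adjusted p = 0.00255). On the opposite strand Ctsb, at a mean of 2589 CPM in DMSO Ova, overlaps 18.3% of the Fdft1 exon bases. The log2 fold change of Ctsb lay above 0, at 0.30 ± 0.20 (SE, edgeR adjusted p = 0.218) and 0.33 ± 0.20 (adjusted p = 0.168), and the strand setting of the counting was not given in the sources used here.

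Cyp51 (chr5:4081145-4104746, minus strand), the lanosterol 14α-demethylase, did not pass the test. Cyp51 stood at 58.7, 42.0, 39.6, 44.9 and 38.3 CPM in mice A to E in DMSO Ova and at 40.3, 35.3, 34.9, 38.1 and 29.9 in DMSO IC. With iBET, Cyp51 stood at 52.2, 43.9, 40.0, 46.6 and 36.5 CPM with Ova and at 39.6, 35.8, 29.8, 36.0 and 30.1 with IC. Its groups overlapped, and the log2 fold change with iBET was -0.028 ± 0.12 (SE, edgeR adjusted p = 0.856) and -0.057 ± 0.12 (adjusted p = 0.708). Ebp, the sterol isomerase, was likewise not called, at -0.048 ± 0.099 (SE, edgeR adjusted p = 0.699) and 0.062 ± 0.099 (adjusted p = 0.613). Tm7sf2, a sterol C14-reductase, stood at only 3.59 to 7.35 CPM and rose by 0.49 ± 0.11 (SE, edgeR adjusted p = 6.45e-04) and 0.51 ± 0.11 (adjusted p = 5.16e-04), and 12.1% of its exon bases belong also to Vps51, which fell, at -0.36 ± 0.087 (SE, edgeR adjusted p = 0.00163) and -0.37 ± 0.088 (adjusted p = 0.00120).

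Lss, which cyclizes squalene epoxide to lanosterol, rose with Ova by 0.23 ± 0.091 (SE, edgeR adjusted p = 0.0349), and with IC the value was 0.16 ± 0.091 (SE, edgeR adjusted p = 0.140), or adjusted p = 0.0256 under the mouse block. The Lss call with Ova was lost at adjusted p = 0.160, 0.0914 and 0.0556 without mice C, D or E. Dhcr7, the last reductase of cholesterol synthesis, rose with IC by 0.34 ± 0.12 (SE, edgeR adjusted p = 0.0201) and had a value of 0.23 ± 0.12 (SE, edgeR adjusted p = 0.101) with Ova, or adjusted p = 0.0439 under the mouse block. Its call with IC was lost at adjusted p = 0.0696, 0.0616 and 0.0703 without mice C, D or E. Fitted to mice A and B, Dhcr7 gave -0.081 ± 0.14 (SE, edgeR adjusted p = 0.670) with Ova and 0.19 with IC. Fitted to mice C, D and E it gave 0.51 and 0.50. The within-mouse log2 difference with Ova was 0.036 in mouse A, -0.21 in mouse B and 0.33 to 0.59 in mice C, D and E. Stard4, a carrier that moves cholesterol between membranes, did not pass the test at 0.22 ± 0.12 (SE, edgeR adjusted p = 0.127) and 0.22 ± 0.12 (adjusted p = 0.131).

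**Figure D2:**
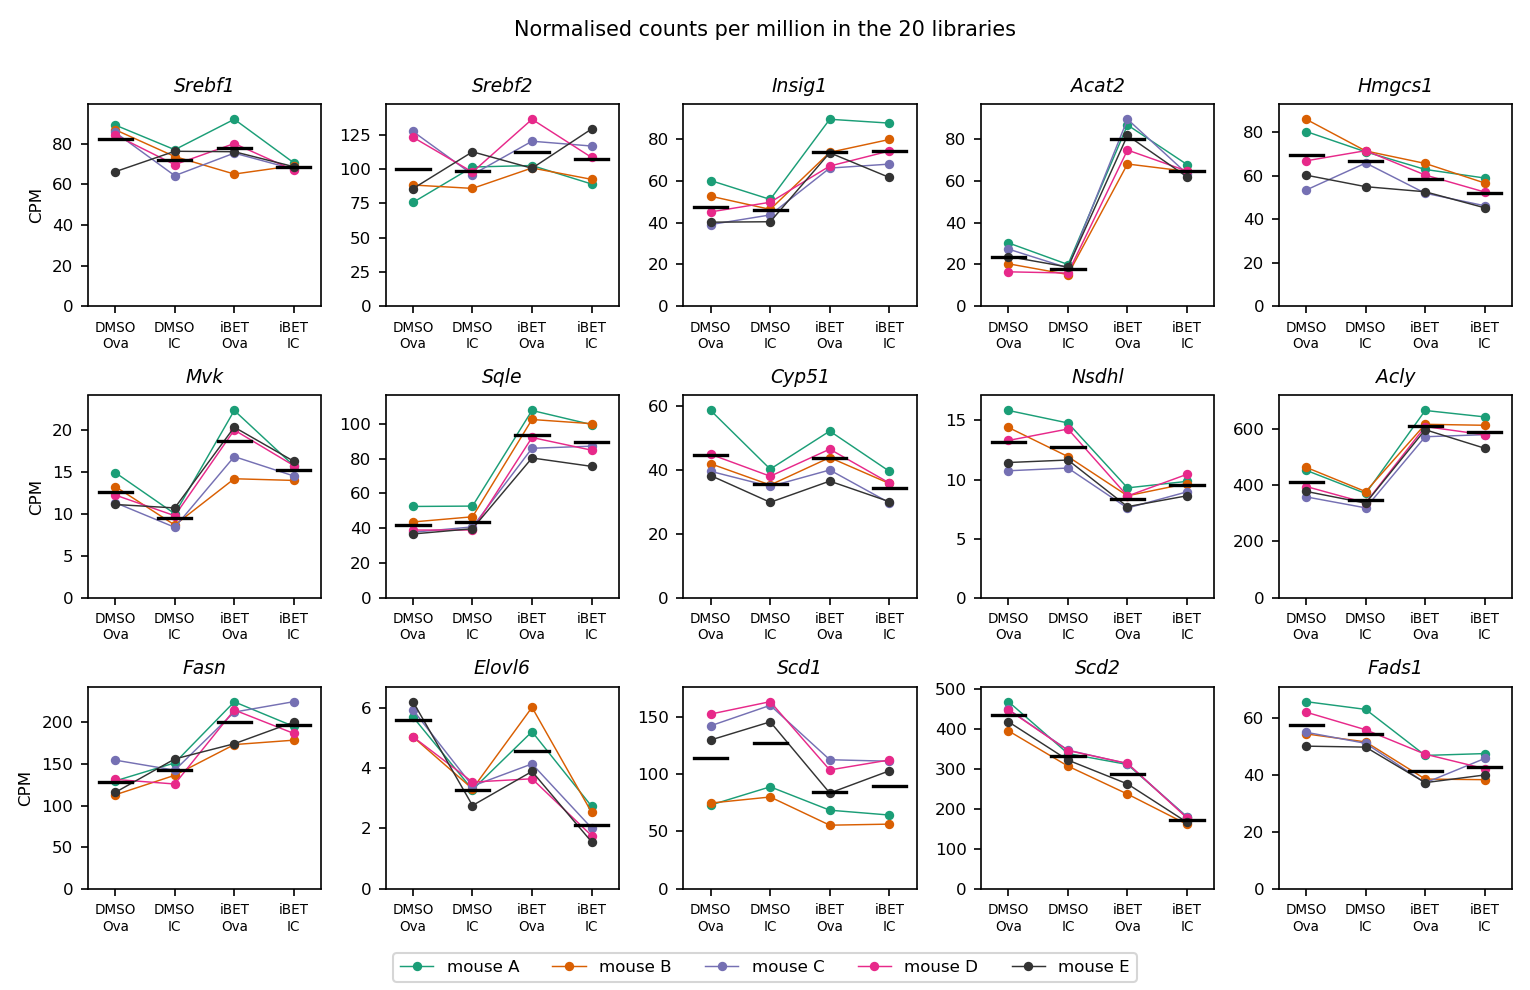
CPM (y axis, linear and from 0) of 15 genes is shown in the 4 groups (x axis), with 1 coloured point and line per mouse and a black bar at the mean of 5 mice. Acat2, Sqle and Acly sit higher in every iBET library than in every DMSO library, Scd2 falls from DMSO Ova to iBET IC in all 5 mice, and Scd1 is lower in mice A and B than in mice C, D and E in each group.

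All 4 genes of fatty acid supply and synthesis rose with iBET under both stimuli over the 5 mice, although Acss2 did not pass in mice A and B alone. ACLY and ACSS2 make cytosolic acetyl-CoA from citrate and from acetate, ACACA carboxylates it to malonyl-CoA, and FASN builds palmitate. The summed CPM of the 4 genes was higher with iBET within every mouse, with an iBET to DMSO ratio of 1.39 to 1.54 with Ova and 1.49 to 1.71 with IC. Acly (chr11:100476353-100528000, minus strand) had the highest level per kb of exon of the 33 genes. Acly stood at 453, 464, 358, 396 and 378 CPM in mice A to E in DMSO Ova and at 371, 377, 319, 337 and 336 in DMSO IC. With iBET, Acly stood at 666, 617, 573, 609 and 598 CPM with Ova and at 644, 614, 580.2, 579.7 and 532 with IC. No iBET library of Acly overlapped the DMSO libraries, and the log2 fold change was 0.58 ± 0.077 (SE, edgeR adjusted p = 2.42e-06) with Ova and 0.76 ± 0.077 (adjusted p = 6.73e-08) with IC.

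Acaca stood at 81.8, 82.2, 84.5, 85.9 and 89.6 CPM in mice A to E in DMSO Ova and at 93.2, 80.4, 75.5, 79.4 and 76.7 in DMSO IC. With iBET, Acaca stood at 133, 132, 117, 123 and 108 CPM with Ova and at 118, 113, 118, 109.6 and 120.0 with IC. For Acaca (chr11:84129672-84401651, plus strand) the groups did not overlap either, and the log2 fold change was 0.53 ± 0.064 (SE, edgeR adjusted p = 7.36e-07) and 0.51 ± 0.064 (adjusted p = 1.20e-06). Of its 100-base stretches, 23.7% lie also in other gene models. Fasn stood at 129.6, 113, 155, 131 and 116 CPM in mice A to E in DMSO Ova and at 151, 136, 142, 126 and 156 in DMSO IC. With iBET, Fasn stood at 225, 173, 212, 215 and 174 CPM with Ova and at 195, 179, 225, 187 and 200.4 with IC. For Fasn (chr11:120805846-120824547, minus strand) all iBET libraries lay above all DMSO libraries, and the log2 fold change was 0.63 ± 0.096 (SE, edgeR adjusted p = 1.26e-05) and 0.47 ± 0.095 (adjusted p = 3.23e-04). Acss2 rose by 0.41 ± 0.11 (SE, edgeR adjusted p = 0.00369) with Ova and by 0.27 ± 0.11 (adjusted p = 0.0499) with IC, with overlapping groups. Fitted to mice A and B, Acss2 gave 0.072 (edgeR adjusted p = 0.707) and 0.11 (edgeR adjusted p = 0.547), so the rise was not called there, and fitted to mice C, D and E it gave 0.70 and 0.41. Its call with IC was lost at adjusted p = 0.0590, 0.188, 0.114 and 0.117 without mice B, C, D or E.

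The 3 elongases did not move together. ELOVL5 extends polyunsaturated chains, ELOVL6 extends saturated and monounsaturated chains such as palmitate, and ELOVL1 acts on very long saturated chains. Elovl5 rose with iBET, by 0.49 ± 0.092 (SE, edgeR adjusted p = 1.49e-04) with Ova and 0.54 ± 0.092 (adjusted p = 4.52e-05) with IC, from 97.6 to 129 CPM with DMSO to 146 to 182 CPM with iBET. Elovl6 stood at 5.70, 5.04, 5.93, 5.04 and 6.21 CPM in mice A to E in DMSO Ova and at 3.29, 3.31, 3.41, 3.54 and 2.76 in DMSO IC. With iBET, Elovl6 stood at 5.21, 6.02, 4.14, 3.65 and 3.89 CPM with Ova and at 2.74, 2.54, 2.02, 1.76 and 1.56 with IC. Elovl6 (chr3:129532355-129638495, plus strand) fell with iBET under IC without overlap, at -0.60 ± 0.16 (SE, edgeR adjusted p = 0.00358), and its value with Ova was -0.29 ± 0.15 (SE, edgeR adjusted p = 0.117), or adjusted p = 0.0426 under the mouse block. Elovl1 did not pass the test, at -0.12 ± 0.10 (SE, edgeR adjusted p = 0.308) and -0.21 ± 0.10 (adjusted p = 0.0868), and under the mouse block its adjusted p with IC was 0.00379.

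Each of the 4 desaturases lay below 0 on the log2 scale with iBET, and 3 were called lower with Ova and 2 with IC. SCD1 and SCD2 place the Δ9 double bond of oleate and palmitoleate, and FADS1 and FADS2 are the Δ5 and Δ6 desaturases of polyunsaturated chains. Their summed CPM was lower with iBET within every mouse, with an iBET to DMSO ratio of 0.632 to 0.716 with Ova and 0.585 to 0.604 with IC. Scd2 (chr19:44293674-44306864, plus strand) was the most abundant of them. Scd2 stood at 469, 396, 449.7, 449 and 419 CPM in mice A to E in DMSO Ova and at 339, 308, 348, 347 and 323 in DMSO IC. With iBET, Scd2 stood at 312, 237, 314, 314 and 263 CPM with Ova and at 180.4, 162, 179.8, 177 and 167 with IC. The 4 groups were separated in pairs: each iBET group lay below the DMSO group of its stimulus. Scd2 fell, at -0.60 ± 0.076 (SE, edgeR adjusted p = 1.44e-06) with Ova and -0.94 ± 0.077 (adjusted p = 3.23e-09) with IC.

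Scd1 (chr19:44394455-44407879, minus strand) had the widest spread between mice of the 33 genes. Scd1 stood at 72.9, 74.6, 142, 152 and 129.6 CPM in mice A to E in DMSO Ova and at 88.8, 79.9, 159.8, 163 and 145 in DMSO IC. With iBET, Scd1 stood at 68.4, 55.4, 112, 104 and 83.4 CPM with Ova and at 64.2, 56.3, 111, 112 and 103 with IC. In mice A and B Scd1 stood below mice C, D and E in each of the 4 groups. Its log2 fold change with iBET was -0.43 ± 0.27 (SE, edgeR adjusted p = 0.179) with Ova and -0.51 ± 0.27 (adjusted p = 0.113) with IC, and all 5 mice were lower with iBET. With the mouse as a replicate block the adjusted p was 7.76e-06 and 5.08e-07. Fitted to mice A and B, Scd1 gave -0.26 and -0.47, and fitted to mice C, D and E it gave -0.46 and -0.50.

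Fads1 stood at 65.8, 54.4, 55.0, 62.1 and 50.1 CPM in mice A to E in DMSO Ova and at 63.0, 51.6, 51.1, 55.9 and 49.8 in DMSO IC. With iBET, Fads1 stood at 46.9, 38.5, 37.2, 47.3 and 37.3 CPM with Ova and at 47.5, 38.3, 45.8, 42.2 and 40.0 with IC. Fads1 (chr19:10182888-10196877, plus strand) fell with iBET in 5 of 5 mice with no overlap under either stimulus, at -0.47 ± 0.094 (SE, edgeR adjusted p = 2.65e-04) and -0.34 ± 0.094 (adjusted p = 0.00416). Fads2 stood at 2.94, 2.02, 2.45, 2.31 and 2.26 CPM in mice A to E in DMSO Ova and at 1.70, 1.5, 1.54, 2.00 and 1.71 in DMSO IC. With iBET, Fads2 stood at 1.98, 1.52, 1.81, 2.07 and 1.25 CPM with Ova and at 1.33, 1.33, 1.5, 1.81 and 0.946 with IC. Fads2 (chr19:10062765-10101746, minus strand) had the lowest level of the 33 genes. It fell with Ova, at -0.48 ± 0.17 (SE, edgeR adjusted p = 0.0226), with overlapping groups, and with IC its value was -0.29 ± 0.18 (SE, edgeR adjusted p = 0.176). The call with Ova was lost at adjusted p = 0.0717, 0.0606, 0.0748 and 0.0646 without mice A, B, C or E.

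**Figure D3:**
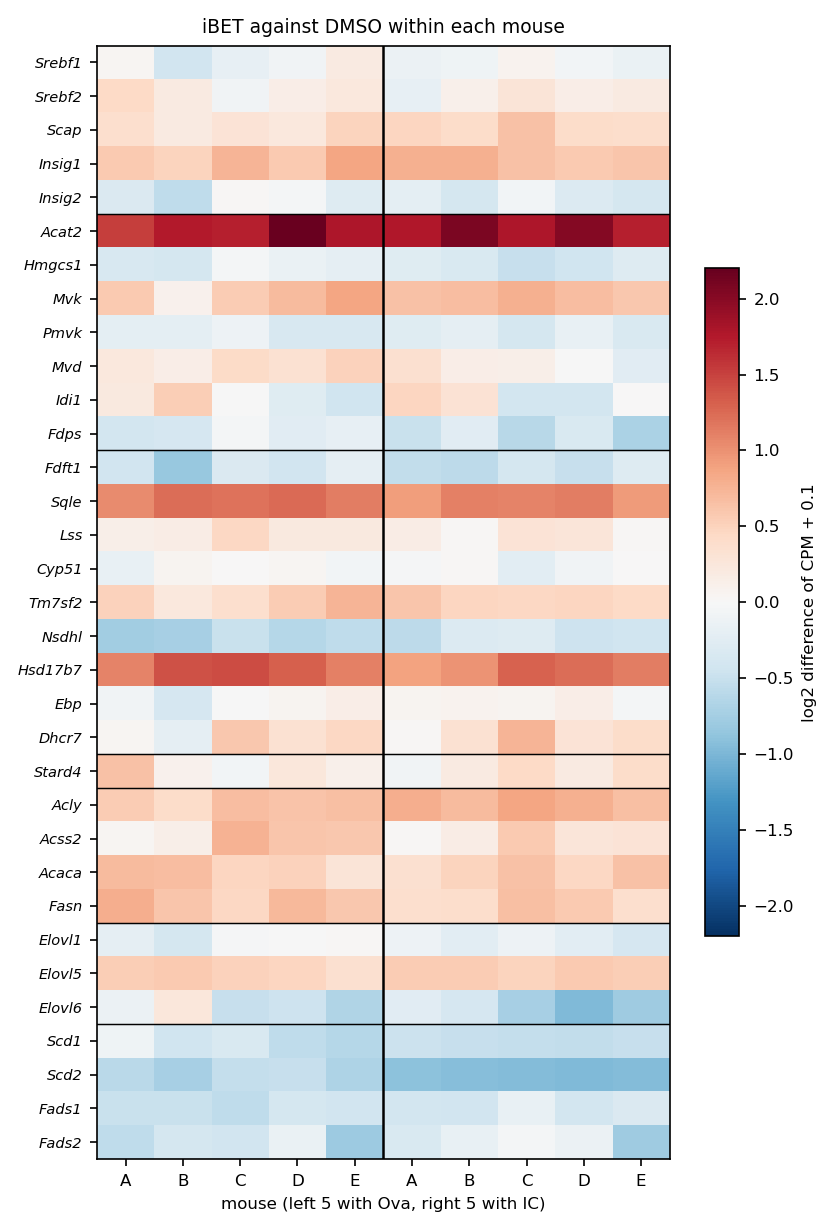
The colour gives the log2 difference of CPM + 0.1 between iBET and DMSO within each mouse, for the 33 genes (rows, in order of role) and mice A to E with Ova (left) and with IC (right). Differences ran from -0.97 to 2.17, and Acat2, Sqle and Hsd17b7 are red and Scd2, Nsdhl, Fads1 and Fdft1 blue in all 10 columns.

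The second question was whether FcγR cross-linking by IC changed these genes against Ova alone. In DMSO cells, IC lowered the elongase Elovl6, the desaturases Scd2 and Fads2, the mevalonate genes Acat2 and Mvk, Acly and Scap, and raised Mvd. These were 8 of the 33 genes, 1 higher and 7 lower, where 20.3% of all genes tested were called, 9.59% higher and 10.7% lower. With library size alone as the scaling, none were called higher and 11 lower. In iBET cells Scd2 and Elovl6 were called, both lower, against 11.8% of all genes, 5.19% higher and 6.63% lower. With the mouse as a replicate block 7 members were called lower in iBET cells, among 28.9% of all genes. The median log2 fold change of the members was -0.057 in DMSO cells and -0.081 in iBET cells, and that of all genes -0.024 and -0.014.

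Elovl6 had the largest difference of this kind. It averaged 5.58 ± 0.527 CPM (SD, n = 5) in DMSO Ova, 3.26 ± 0.297 in DMSO IC, 4.58 ± 1.00 in iBET Ova and 2.12 ± 0.502 in iBET IC. Its IC libraries lay below its Ova libraries without overlap under either treatment, and the log2 fold change was -0.78 ± 0.15 (SE, edgeR adjusted p = 0.00163) in DMSO and -1.09 ± 0.16 (adjusted p = 1.78e-04) in iBET. Scd2 fell with IC in 5 of 5 mice, at -0.39 ± 0.076 (SE, edgeR adjusted p = 0.00128) in DMSO and -0.73 ± 0.076 (adjusted p = 2.73e-06) in iBET, again without overlap. Both kept their calls when any 1 mouse was left out.

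The other 6 calls in DMSO cells were each lost when a mouse was left out. Mvk fell, at -0.40 ± 0.11 (SE, edgeR adjusted p = 0.0156) with no overlap, and Fads2 at -0.51 ± 0.17 (SE, edgeR adjusted p = 0.0403), also with no overlap. Acat2 fell, at -0.42 ± 0.13 (SE, edgeR adjusted p = 0.0224), as did Acly at -0.24 ± 0.076 (SE, edgeR adjusted p = 0.0352) and Scap at -0.21 ± 0.065 (SE, edgeR adjusted p = 0.0268), with overlapping groups. Mvd rose by 0.37 ± 0.11 (SE, edgeR adjusted p = 0.0257) and was higher with IC in 5 of 5 mice. Leaving out 1 mouse ended these calls at adjusted p = 0.0781 and 0.0628 without mice C or D for Mvk, 0.144, 0.0876, 0.191, 0.0533 and 0.0506 without mice A, B, C, D or E for Fads2 and 0.0575, 0.0525, 0.135 and 0.0707 without mice A, B, C or E for Acat2. It ended them at 0.0655, 0.0931, 0.0807, 0.124 and 0.0680 without mice A, B, C, D or E for Acly, 0.0732, 0.249 and 0.128 without mice A, C or D for Scap and 0.0611, 0.0691, 0.125 and 0.145 without mice B, C, D or E for Mvd.

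For these genes the values in iBET cells did not pass the test. They were -0.30 ± 0.11 (adjusted p = 0.0818) for Mvk, -0.31 ± 0.12 (adjusted p = 0.10) for Acat2 and 0.13 ± 0.11 (adjusted p = 0.519) for Mvd in edgeR. Cyp51 missed the threshold in both arms, at -0.33 ± 0.12 (SE, edgeR adjusted p = 0.0612) in DMSO and -0.36 ± 0.12 (adjusted p = 0.0612) in iBET, and was lower with IC in 5 of 5 mice. Under the mouse block its adjusted p was 1.34e-04 and 7.75e-05. Acat2, Mvk, Hmgcs1 and Fdps also passed under the mouse block in iBET cells, with adjusted p = 0.0108, 0.0122, 0.0399 and 0.0194. In DMSO cells Elovl1 and Scd1 passed under the block, at adjusted p = 0.00282 and 0.0395, both above 0. The genes that iBET changed most in the sterol branch had small values here, Sqle at 0.062 ± 0.11 (SE, edgeR adjusted p = 0.760) and Hsd17b7 at 0.014 ± 0.15 (adjusted p = 0.969) in DMSO cells.

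**Figure D4:**
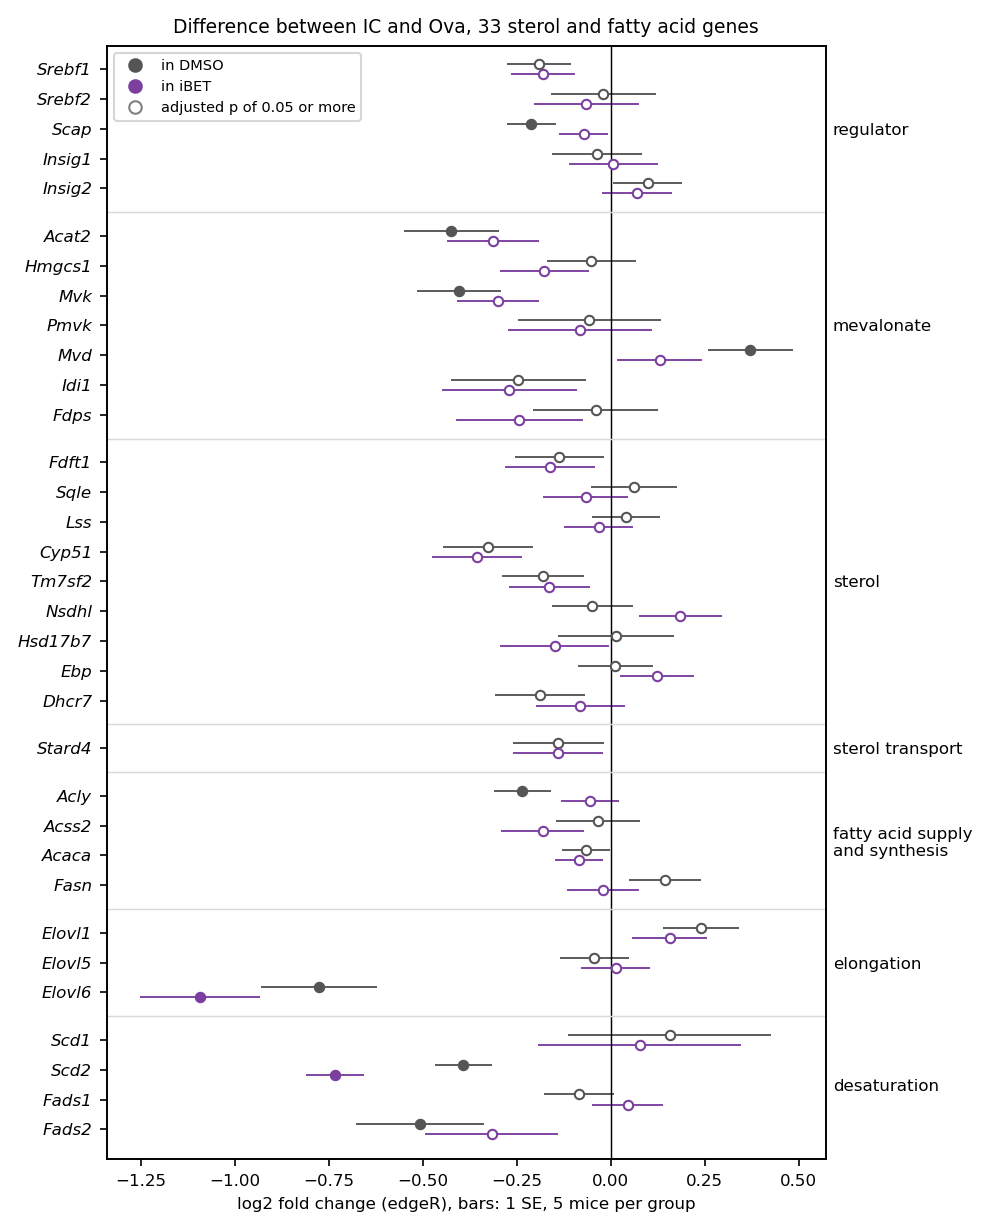
The log2 fold change between IC and Ova (x axis) is plotted for the 33 genes in order of role, in DMSO cells (grey) and iBET cells (purple), with bars of 1 SE over 5 mice per group and filled points for an adjusted p under 0.05 in edgeR. Elovl6 lies at -0.78 and -1.09 and Scd2 at -0.39 and -0.73, and most other points lie within 0.5 of 0.

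The third question was whether the iBET effect differed between IC and Ova. In edgeR's test of this difference none of the 33 genes passed, 1 gene (Scd2) had an unadjusted p under 0.05, and 0.0401% of all genes tested were called. DESeq2 and limma on the size-factor values also called 0 of the 33. Scd2 had a difference of -0.34 ± 0.11 (SE, edgeR adjusted p = 0.677), below 0 in 5 of 5 mice. With the mouse as a replicate block it passed at adjusted p = 0.0144, the only one of the 33 to do so, where 0.818% of all genes did. The iBET effects under both stimuli had the same sign in 32 of the 33 genes, Ebp being the exception with values near 0.

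The genes differed widely in level and in how much the mice varied. Per kb of exon, mean levels over the 20 libraries ran from 92.8 CPM per kb for Acly through 56.3 for Scd2 and 38.8 for Elovl5 down to 0.605 for Elovl6 and 0.546 for Fads2. The SD of log2 CPM within groups ran from 0.094 for Acaca and 0.097 for Scap to 0.31 for Idi1, 0.33 for Pmvk and 0.48 for Scd1. Scd1, Pmvk and Idi1 were lower in mice A and B, with mean deviations from the group mean of -0.43 and -0.58 for Scd1, -0.25 and -0.42 for Pmvk and -0.24 and -0.22 for Idi1 on the log2 scale. Some cell type markers differed between the same mice. In DMSO Ova the dendritic marker Zbtb46 stood at 12.0, 12.9, 31.9, 33.7 and 32.2 CPM in mice A to E. There the macrophage marker Cd68 stood at 314, 279, 142, 170 and 184 CPM. Itgax (2210, 1965, 1718, 2056 and 1861 CPM) and Adgre1 (170, 164, 177, 143 and 163 CPM) showed no such split. A link between marker and member differences was not tested. The mean deviation of all 9 sterol branch genes was highest in mouse A. Cyp51 deviated by 0.27 there, Sqle by 0.25 and Fdps by 0.45, each above the group mean in 4 of 4 groups.

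Promoters were examined for the sterol regulatory element TCACNCCAC, which SREBP factors bind, and for CCAAT, the box bound by NF-Y. Windows ran from 250 bases before to 50 bases after the start site (RefSeq, GRCm38.p6), both strands were searched, and 26 of the 33 genes matched with 35 promoters. TCACNCCAC was present in 1 of the 35, that of Hmgcs1, and in 1.24% of all 32851 promoters. CCAAT was present in 22 of the 35 (62.9%) and in 37.4% of all promoters, and the 2 motifs share no bases in the Hmgcs1 window. The promoters of Fdps, Fdft1, Fads1, Scd1, Scd2, Stard4 and Sqle were not analysed here. A match is a description of these letters and not a bound site.

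The stretches from 250 to 26 bases before the start site are shown for 4 genes, in capitals where a motif or its reverse complement (ATTGG for CCAAT) was found. They are Hmgcs1 (chr13:119690101-119690325, plus strand), the one window with a TCACNCCAC match, Mvk (chr5:114444019-114444243, plus strand), a mevalonate gene with repeated CCAAT matches, Fasn (chr11:120824573-120824797, minus strand), a fatty acid gene with overlapping CCAAT matches, and Acat2 (chr17:12960751-12960975, minus strand), the gene with the largest change and no match.
Hmgcs1: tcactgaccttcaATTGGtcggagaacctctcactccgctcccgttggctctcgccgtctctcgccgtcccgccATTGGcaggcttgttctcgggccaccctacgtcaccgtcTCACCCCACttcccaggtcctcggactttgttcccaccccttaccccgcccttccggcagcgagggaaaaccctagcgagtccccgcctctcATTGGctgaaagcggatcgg
Mvk: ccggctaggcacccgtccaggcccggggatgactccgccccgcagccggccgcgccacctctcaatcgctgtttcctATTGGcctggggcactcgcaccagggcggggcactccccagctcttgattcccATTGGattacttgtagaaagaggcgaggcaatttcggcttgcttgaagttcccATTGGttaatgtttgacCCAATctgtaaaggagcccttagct
Fasn: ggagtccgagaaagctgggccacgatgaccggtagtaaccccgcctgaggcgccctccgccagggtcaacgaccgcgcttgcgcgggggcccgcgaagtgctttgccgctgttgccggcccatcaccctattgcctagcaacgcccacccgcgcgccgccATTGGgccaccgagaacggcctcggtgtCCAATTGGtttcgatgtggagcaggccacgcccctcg
Acat2: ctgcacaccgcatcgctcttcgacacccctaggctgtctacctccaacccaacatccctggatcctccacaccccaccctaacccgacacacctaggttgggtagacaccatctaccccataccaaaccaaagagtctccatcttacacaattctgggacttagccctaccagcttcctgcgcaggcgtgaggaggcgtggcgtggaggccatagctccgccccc

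Other genes of the same pathways, which are not among the 33, were counted by list. Of 13 tested sterol and isoprenoid genes, 7 were called higher with iBET in Ova and 6 in IC, and none lower. The counts of this and the next lists stand against the 56.6% and 56.1% of all genes called, and the total called in each was not tested against that share. Lbr, the nuclear envelope protein that also acts as a sterol C14-reductase, rose by 1.10 ± 0.082 (SE, edgeR adjusted p = 1.05e-09) and 1.19 ± 0.082 (adjusted p = 3.43e-10). Msmo1, the C4-methyl oxidase, rose with Ova by 0.45 ± 0.17 (SE, edgeR adjusted p = 0.0255) and stood at 0.34 ± 0.17 (adjusted p = 0.0911) with IC.

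Of 12 tested genes for SREBP processing and turnover, Ova gave 6 called higher and 2 lower, and IC gave 5 and 2. The proteases that cleave SREBP in the Golgi moved apart, Mbtps1 rising by 0.38 ± 0.050 (SE, edgeR adjusted p = 2.81e-06) and 0.34 ± 0.050 (adjusted p = 8.54e-06) and Mbtps2 falling, with log2 fold changes of -0.30 ± 0.11 (SE, edgeR adjusted p = 0.0230) and -0.54 ± 0.11 (adjusted p = 2.98e-04). Fbxw7, the ubiquitin ligase subunit that marks nuclear SREBP for degradation, rose by 0.68 ± 0.095 (SE, edgeR adjusted p = 5.26e-06) and 0.72 ± 0.095 (adjusted p = 2.31e-06). Of 15 tested genes for fatty acid synthesis and elongation, Ova gave 7 called higher and 2 lower, and IC gave 6 and 3. Hacd2 and Hacd3, dehydratases of the elongation cycle, rose by 0.87 ± 0.080 (SE, edgeR adjusted p = 1.90e-08) and 1.01 ± 0.11 (SE, edgeR adjusted p = 1.18e-07) with Ova. Scd4, a further Δ9 desaturase, fell with iBET, at -1.73 ± 0.54 (SE, edgeR adjusted p = 0.0100) and -1.49 ± 0.56 (adjusted p = 0.0295). Its level was low, at 1.28 to 3.69 CPM in DMSO Ova and 1.41 to 1.87 CPM in DMSO IC. In iBET Ova it stood at 0 to 2.22 CPM (0 to 53 counts) and in iBET IC at 0.222 to 1.11 CPM (6 to 20 counts). IC against Ova in DMSO cells called 1 sterol and isoprenoid gene higher and 3 lower, 1 processing gene higher and 1 lower, and none of the 15 fatty acid genes in edgeR, of which 6 passed under the mouse block, where 38.1% of all genes did.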

How the data were processed

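RNA of BMDCs was sequenced from 20 libraries, 5 mice in each of 4 groups taken from the labels. The methods describe lysis of the cultured cells and name no sort before it, and the gate of any sort was not given in the sources used here. Per the labels, the authors trimmed reads with Trim Galore, aligned them to mm10 with HISAT2 and counted them per gene with featureCounts. Versions, strand setting and annotation were not given in the sources used here. The deposited values were raw counts, and a second deposited table held the same counts divided by 1 size factor per library (signal). Total counts ranged from 16447491 to 29245150 (median 21764663).

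Counts were analysed in R 4.3.3 with edgeR 4.0.16: genes passing filterByExpr (12465 of 24421), TMM scaling, 1 model of the 4 groups, quasi-likelihood tests and Benjamini-Hochberg adjustment at 0.05. SE is the absolute log2 fold change over the square root of F. Per-mouse differences used CPM + 0.1. Scripts were tested on simulated data. Alternatives were the mouse as a block, DESeq2 1.42.0, limma 3.58.1 on log2(size-factor value + 1), svaseq (sva 3.50.0, 3 surrogate variables), other scalings and filters, and leaving out mice. Mice A and B and mice C, D and E were also fitted apart, since earlier results of these data had separated them, though the labels and methods name no batch. The study's surrogate variable design was not given in full, so the plain fit was used.

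The 4 libraries of a mouse came from 1 animal. Deviations from the group means correlated within mice (mean r 0.524 over 30 pairs, lowest 0.307) and averaged -0.127 between mice (120 pairs). The 40 pairs of libraries within a group were checked for duplicates, and the lowest chi-square per degree of freedom was 12.6; pairs across groups were not checked. Coordinates are GRCm38 (GENCODE M21). Members and lists were chosen with earlier results of these data known. Values in every library are given for 12 preset genes and for the 3 called genes of smallest adjusted p in each direction of each pairwise contrast.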

Additional observations from a re-analysis of the deposited data

Results flagged for a closer look

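Of 132 groups of 5 libraries (33 genes in 4 groups), 6 held 1 library far from the other 4 by Dixon's criterion, and chance alone marks about 1 in 20 groups. 4 of the 6 were libraries of mouse A. Fdps stood highest in mouse A in DMSO Ova at 35.4 CPM, with the other mice at 20.96 to 23.5, and in DMSO IC at 31.9 CPM, with the others at 21.5 to 22.4. Lss stood highest in mouse A in DMSO Ova at 30.1 CPM, with the others at 21.9 to 24.2. Acaca stood highest in mouse A in DMSO IC at 93.2 CPM, with the others at 75.5 to 80.4. Srebf1 stood lowest in mouse E in DMSO Ova at 66.2 CPM, with the others at 84.2 to 89.1. Scap stood lowest in mouse B in iBET Ova at 57.6 CPM, with the others at 66.8 to 69.2. The difference of the Scd2 response to iBET between IC and Ova, -0.34 on the log2 scale, passed only with the mouse as a block or with surrogate variables.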

How the results depend on the processing

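The numbers of genes called between iBET and DMSO (20 under Ova, 21 under IC) stayed within 1.5 times under all 15 alternatives, and a replicate block for the mouse gave 26 and 25. For IC against Ova in DMSO cells, where 8 genes were called, 5 were called with no filter on low counts, 4 with only the 2 groups compared, 2 to 5 when each mouse was left out, 0 in mice A and B and 4 in mice C, D and E, where fewer samples enter. For IC against Ova in iBET cells, where 2 were called, 7 were called with the replicate block, 7 with library size only, 4 with only the 2 groups compared and 9 with surrogate variables. For the difference of the iBET effect between stimuli, where 0 were called, 1 was called with the replicate block and 1 with surrogate variables. The cause of these differences was not tested. Library size alone moved the median of all genes by -0.11 in both comparisons of IC with Ova and the share of called members that were higher in DMSO cells from 12.5% to 0%. Over the 20 genes given by library and all alternatives, 1386 values kept their side of the threshold. Of the rest, 42 passed it newly and 52 no longer passed, and none reversed after being called. Values that were not called could change sign. Insig1 for IC against Ova in DMSO cells gave -0.22 in mice A and B and 0.12 in mice C, D and E. In mice A and B alone the calls of Mvk, Mvd, Lss and Acss2 with Ova and of Acss2, Dhcr7 and Elovl6 with IC were lost with values over 1.5 times smaller, and in mice C, D and E that of Insig2 with Ova. Depth limited Fads2 and Elovl6 most, with lowest counts of 17 and 28. The 5 mice are the only replication, and counting across paralogs and strands could not be checked.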

Other observations

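Genes next to the synthesis pathways are given by list, beside 56.6% (Ova) and 56.1% (IC) of all genes called, and no list was tested against that share. Of 9 tested genes of the liver X receptor (LXR) and its targets, which serve cholesterol export, Ova gave 2 called higher and 4 lower, and IC gave 2 and 3. Nr1h3, encoding LXRα, fell, with log2 fold changes of -2.04 ± 0.22 (SE, edgeR adjusted p = 1.59e-07) and -1.75 ± 0.21 (adjusted p = 9.02e-07). Its partner Rxra fell at -1.01 ± 0.12 (SE, edgeR adjusted p = 4.36e-07) and -1.02 ± 0.12 (adjusted p = 3.74e-07), and the sterol exporter Abcg1 at -0.81 ± 0.087 (SE, edgeR adjusted p = 1.55e-07) and -0.82 ± 0.087 (adjusted p = 1.23e-07).

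Of 4 tested genes that activate fatty acids with coenzyme A, Ova gave 2 called higher and 1 lower, and IC gave 1 and 2. Acsl3 rose by 1.59 ± 0.097 (SE, edgeR adjusted p = 6.69e-11) and 1.71 ± 0.098 (adjusted p = 2.46e-11). Of 8 glycerolipid synthesis genes, 3 were called higher and 3 lower under each stimulus. Dgat2 and Dgat1, which complete triglycerides, rose by 1.82 ± 0.25 (SE, edgeR adjusted p = 4.93e-06) and 0.78 ± 0.10 (SE, edgeR adjusted p = 2.49e-06) with Ova, and Agpat3, an acyltransferase of phospholipid synthesis, fell, at -1.24 ± 0.12 (SE, edgeR adjusted p = 5.81e-08) with Ova and -1.17 ± 0.12 (adjusted p = 1.41e-07) with IC.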
